A study of Danio rerio with 6 samples.

Results

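The libraries described come from 3 zebrafish that received Cas9 RNA (R1 to R3). They were chosen by 2 rules only, the injection given in the sample labels and a total of at least 1000 reads. These rules gave 58 of the 130 libraries of the series, namely 31 in fish R1, 13 in fish R2 and 14 in fish R3, and no measured share entered the choice. A library is the GFP fragment amplified by PCR from the genomic DNA of 1 dissected piece of a fish and marked by its own barcode.

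All fish carried an array of histone-GFP (H2A-GFP) transgenes, received a guide RNA against GFP together with Cas9 at the one-cell stage, and were dissected at about 1 year of age. The only labelled difference between the groups was the form of Cas9, RNA in fish R1 to R3 and protein in fish P1 to P3, the latter with 72 libraries. Each library was identified here by its barcode number, because the body structure behind each number was not used. Libraries of 1 fish share 1 injected egg as their source, so the fish was the unit in every comparison of groups, and p-values come from relabelling these fish.

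In ScarTrace, a break that Cas9 makes in GFP is repaired with insertions or deletions, and the altered sequence, a scar, is passed on to all daughters of the cell. A scar made early, or in a cell with many descendants, can fill a large part of the GFP copies of a body structure. Some scars arise again and again at the same break, so the same scar in a pair of fish, or in a pair of structures, need not come from a single event. Cas9 RNA has to be translated before it can cut, while the protein can cut at once.

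Depth was high but uneven. Libraries held 22616 to 1655481 reads in fish R1, 13027 to 3198706 in fish R2 and 45846 to 810501 in fish R3. Unscarred GFP, a read aligned to the GFP reference of 720 bp without insertion or deletion, made up 7.12% to 71% of the reads of a library in fish R1 (median 26.9%), 74.3% to 92.5% in fish R2 (median 85.9%) and 26.7% to 65.1% in fish R3 (median 45.3%). Every library of fish R2 thus held a larger share of unscarred GFP than any library of fish R1 or R3. The paper states that it kept only fish in which most GFP was scarred, on the mean across organs, and fish R2 was among them. Over the libraries used here, unscarred GFP in fish R2 had a mean of 86.3%. The reason for this difference was not tested. All shares below are of scarred reads alone, of which the poorest library of each fish held 14897, 2013 and 15994, respectively. The widest 95% Wilson interval of a leading share among the 58 libraries ran from 17.7% to 21.1% around 19.3% (fish R2, barcode 13). A count of 0 allows up to 3 reads, at most 0.0201%, 0.149% and 0.0188% of the scarred reads of any library of the 3 fish, in the same order. PCR reads without molecular identifiers are not independent molecules, so these limits cover counting error only.

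The labels of the fish were checked against the scars themselves by correlating each library with the mean of the other libraries of its own fish and with the mean of every other fish. Of the 58 Cas9 RNA libraries, 57 lay nearest their own fish. The exception was fish R3, barcode 12, with r = 0.748 to its own fish and 0.750 to fish P1. When the 15 scars with a mean share of at least 0.1% in each of the 6 fish were left out, this library also lay nearest fish R3, and barcode 10 of fish R3, with r = 0.122 to its own fish and 0.125 to fish R1, was the 1 Cas9 RNA library that did not. Among the Cas9 protein libraries, barcode 24 of fish P1 stood against its label, with r = 0.321 to fish P1, 0.943 to fish P2 and 0.996 to barcode 6 of fish P2. Barcode 19 of fish P2 lay as near to fish P1 (0.433) as to its own fish (0.432). The comparisons with Cas9 protein fish are given with and without barcode 24 of fish P1.

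The scars lay in the same place in the 3 fish. The base deleted most often over the 3 fish was base 543 of the GFP reference, counted from 1, which was missing from 46.4% to 74.3% of the scarred reads of a library in fish R1 (median 63.7%), from 56% to 75.9% in fish R2 (median 61.6%) and from 38.3% to 79.8% in fish R3 (median 59%). The mean over libraries peaked at base 542 in fish R1 and R3 and at base 544 in fish R2. The ranges of the 3 fish overlap at base 543, and the peaks lie within 2 bases of each other. On the side of lower base numbers, a base was deleted in at least 10% of scarred reads, on the mean over libraries, at bases 523 and 524 and again from base 528 in fish R1, from base 532 in fish R2 and from base 529 in fish R3, and on the other side the last such base was 549, 548 and 549.

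**Figure D1:**
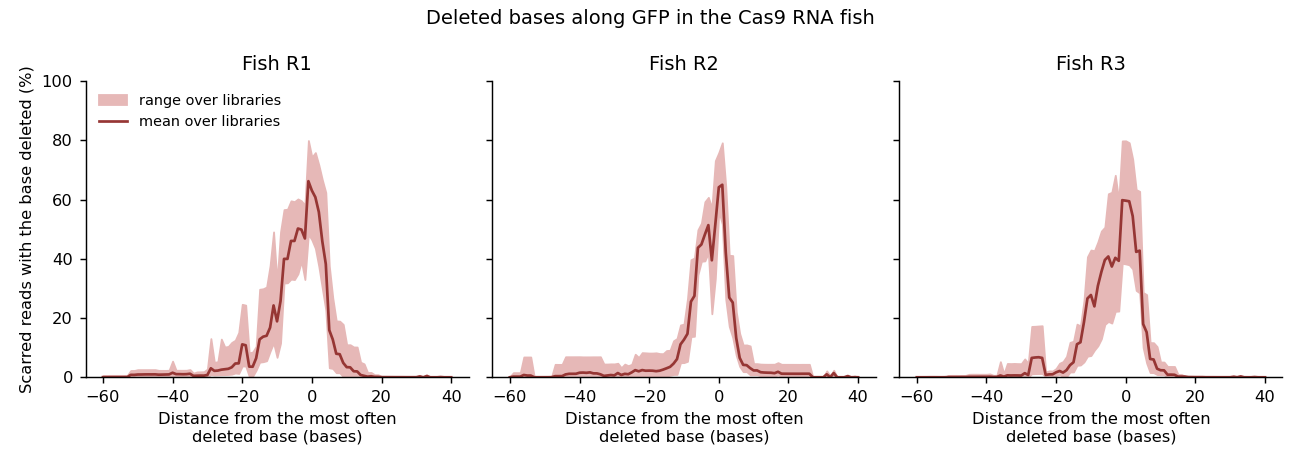
Share of scarred reads in which each base of GFP was deleted (y axis, %), against the distance in bases from base 543, the base deleted most often over the 3 fish (x axis). The line is the mean over the libraries of a fish and the band runs from the lowest to the highest library. All 3 fish peak within 1 base of this point and fall off more slowly on the side of lower base numbers.

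Most scarred reads carried a single deletion. Single deletions made up 53.5% to 89.1% of the scarred reads of a library in fish R1 (median 75.3%), 38.6% to 79.99% in fish R2 (median 59.5%) and 40.4% to 92.3% in fish R3 (median 69.4%). Single insertions were scarce in fish R1, with 1.75% to 7.90% (median 3.58%), and reached 9.14% to 33% in fish R2 (median 19.9%) and 2.42% to 53.8% in fish R3 (median 12.5%). No library of fish R1 had as large a share of single insertions as the lowest library of fish R2. In fish R2, 1 insertion scar had a median of 16.1% and held 32.1% in the highest library (barcode 1). In the highest library of fish R3 (barcode 14), another insertion scar held 50.5%. Scars with 2 or more events had medians that lay close together, 19.9%, 17.2% and 18.6%. Their libraries ran from 8.94% to 44.1%, 8.94% to 29.5% and 5.28% to 29.5%. Reads whose net change in length was a multiple of 3, which keeps the reading frame, also had close medians, 57.4%, 56.9% and 58.5%. Single libraries ran from 38% to 71.2%, 42.9% to 77.3% and 33.9% to 65.9%.

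The scars named below are the 5 with the highest mean share in each fish, in which every library counts equally. Since the lists of the 3 fish overlap, they are 11 scars, here lettered A to K. The letters are those of the stacked plot of shares by library. Positions are those of the deposited alignment, and within a repeat an aligner can place the same deletion in more than 1 way.

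Scar A, a deletion of 6 bp from base 542 to 547 at the site of the break, was read in every library of the 3 fish. Its share ran from 6.10% (barcode 16) over a median of 15.7% to 32.3% (barcode 24) in fish R1, from 5.05% (barcode 5) over 8.73% to 19.3% (barcode 13) in fish R2 and from 12.9% (barcode 12) over 19.2% to 33.8% (barcode 13) in fish R3. It was the leading scar, the one with the largest share, in 26 of 31 libraries of fish R1 and in 13 of 14 of fish R3. In fish R2 it led only 2 of 13 libraries, barcodes 2 and 13. It was also one of the 15 scars common to the 6 fish, and its mean share was 19.9% in P1 (20.01% without barcode 24), 9.49% in P2 and 12.7% in P3, so its weight is not particular to Cas9 RNA fish.

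In fish R1 the next scar was not shared with the other fish. Scar B, which joins a deletion of 2 bp (bases 523 to 524) to one of 5 bp (bases 528 to 532), was present in all 31 libraries at 1.65% (barcode 19) to 19.8% (barcode 4) with a median of 4.32%. It led barcode 4 with 19.8% and barcode 25 with 18.8%. Scar C, a deletion of 12 bp from base 535 to 546, ran from 2.16% (barcode 21) over 4.05% to 13.4% (barcode 31). Its mean of 4.83% fell to 0.683% in fish R2 and 0.141% in fish R3, although the scar was read in all 3. The mean in fish R2 rested on barcode 12 with 7.68%, without which it was 0.0999%. Scar D, which starts at the same base and removes 11 bp up to base 545, ran from 1.12% (barcode 25) over 3.40% to 13.2% (barcode 17). Scar E, 9 bp from base 535 to 543, ran from 0.964% (barcode 11) over 2.74% to 18.2% (barcode 17), and it led barcode 17. Scars B, C and D were thus at 1% or more in every library of fish R1 and scar E in 30 of 31, but each rose several times above its median in a few of them. A further scar, a deletion of 3 bp from base 545 to 547, led barcode 19 (18.2%) and barcode 16 (15.3%), while the next highest library had 2.44% and the median library 0.254%.

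In fish R2 the leading scar was an insertion. Scar F, 3 bp inserted after base 542, led 8 of 13 libraries (barcodes 1, 3, 4, 5, 7, 8, 10 and 12) and ran from 3.16% (barcode 14) over 16.1% to 32.1% (barcode 1). Its mean of 15.9% stood against 0.001% in fish R1 and 0.041% in fish R3. Scar G, a deletion of 4 bp (bases 537 to 540) with one of 2 bp (bases 543 to 544), ran from 2.35% (barcode 14) over 11% to 24.4% (barcode 8), with means of 0.309% in fish R1 and 0.064% in fish R3. Barcodes 1, 7 and 8 held the 3 highest shares of both scars and barcode 14 the lowest. Scar D ran from 3.33% (barcode 12) over 7.0% to 10.04% (barcode 11), the narrowest of the 5. Scar H, a deletion of 3 bp from base 542 to 544, ran from 0.112% (barcode 8) over 2.88% to 10.5% (barcode 14) and led barcode 14. The remaining 2 libraries were led by deletions that start at base 535, one of 10 bp in barcode 9 (14.4%) and scar D in barcode 11 (10.04%).

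In fish R3 scars A and D were again among the first 5, with 3 that were not among the first 5 of the other fish. Scar I, a deletion of 18 bp from base 532 to 549, ran from 2.32% (barcode 14) over 8.17% to 15.8% (barcode 10). It was read in all 3 fish with means of 3.32% and 1.91% in fish R1 and R2. Scar J, deletions of 4 bp (bases 516 to 519) and 10 bp (bases 529 to 538), ran from 0.632% (barcode 10) over 4.26% to 16.7% (barcode 1), while its mean was 0.009% in fish R1 and below 0.001% in fish R2. Scar K, an insertion of 5 bp after base 543, had 50.5% in barcode 14 and 12% in barcode 2, and from 0.178% to 0.515% in the other 12 libraries. This share of scar K in barcode 14 was the largest of any scar in the 58 libraries. Its mean of 4.72% rested on barcode 14, without which it was 1.19% and the scar fell from rank 4 to rank 14. Scar D ran from 1.10% (barcode 14) over 4.55% to 10.8% (barcode 12).

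**Figure D2:**
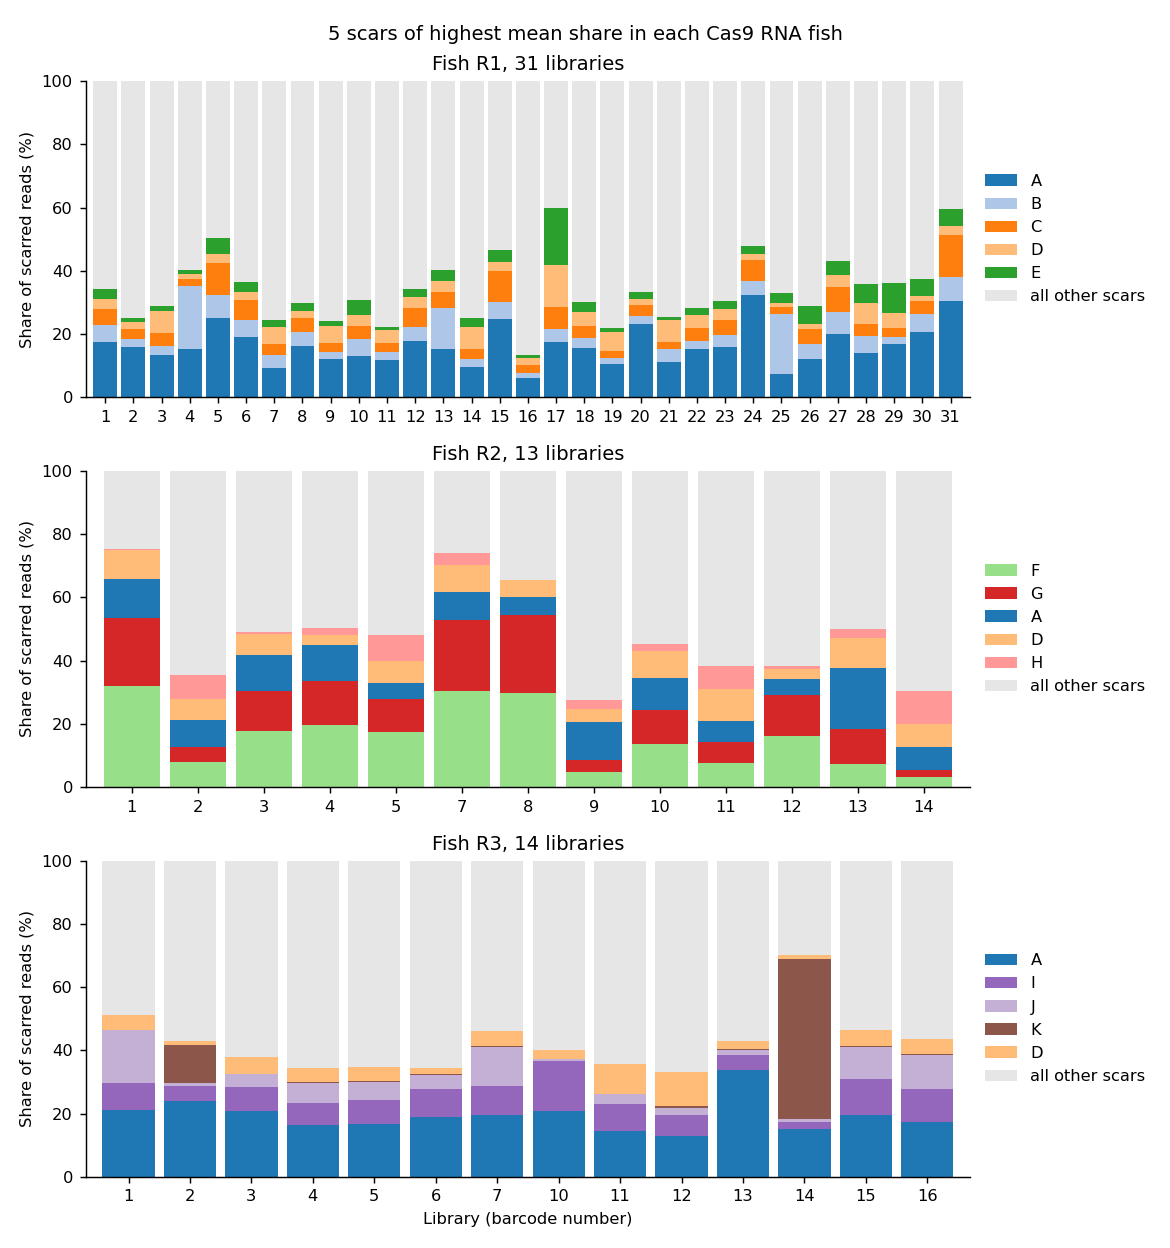
Share of scarred reads (y axis, %) of the 5 scars of highest mean share in each Cas9 RNA fish, stacked, with all other scars in grey, for each library (x axis, barcode number). Scar A is the largest piece in most libraries of fish R1 and R3 and scar F in 8 of 13 libraries of fish R2, while scar K fills 50.5% of barcode 14 of fish R3 and is hardly visible outside barcodes 14 and 2.

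The share of the leading scar measures how far 1 scar dominates a library. It ran from 9.36% (barcode 7) over 16.3% to 32.3% (barcode 24) in fish R1, from 8.50% (barcode 2) over 17.4% to 32.1% (barcode 1) in fish R2 and from 12.9% (barcode 12) over 19.4% to 50.5% (barcode 14) in fish R3. The ranges of the 3 fish overlap, and their medians differ by less than the spread between libraries of any 1 of them. A single scar held over 50% of the scarred reads in 1 of the 58 libraries, barcode 14 of fish R3.

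Evenness was described by the effective number of scars, the exponential of the Shannon entropy, which is the number of equally frequent scars that would give the same diversity. It ran from 16.7 (barcode 31) over 38.5 to 62.9 (barcode 22) in fish R1, from 10.1 (barcode 1) over 24.4 to 59 (barcode 2) in fish R2 and from 9.88 (barcode 14) over 24.7 to 40.5 (barcode 12) in fish R3. The median effective number was highest in fish R1, but the ranges overlap. The effective number also grows with the number of scars read, and Pielou's evenness, the entropy over the logarithm of that number, had medians of 0.497, 0.521 and 0.470, with fish R2 first. Fish R2 also had the fewest scarred reads, with a median library of 45347 against 165820 in fish R1 and 139981 in fish R3. Pielou's evenness was highest in the library with the fewest scarred reads in fish R1 (barcode 8) and R2 (barcode 13), but not in fish R3. The part of depth in this order was not tested. The extreme libraries show what the effective numbers stand for. In barcode 31 of fish R1, scar A (30.4%) and scar C (13.4%) came first and 17 scars held 90% of the scarred reads, whereas in barcode 22 the scars after A (15.2%) had at most 6.18% and 76 scars were needed. In barcode 1 of fish R2, scars F (32.1%) and G (21.3%) together passed 50%, while in barcode 2 scars A and F had 8.50% and 7.77% and 10 scars were needed to reach 50%. In barcode 14 of fish R3, scar K alone passed 50%.

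**Figure D3:**
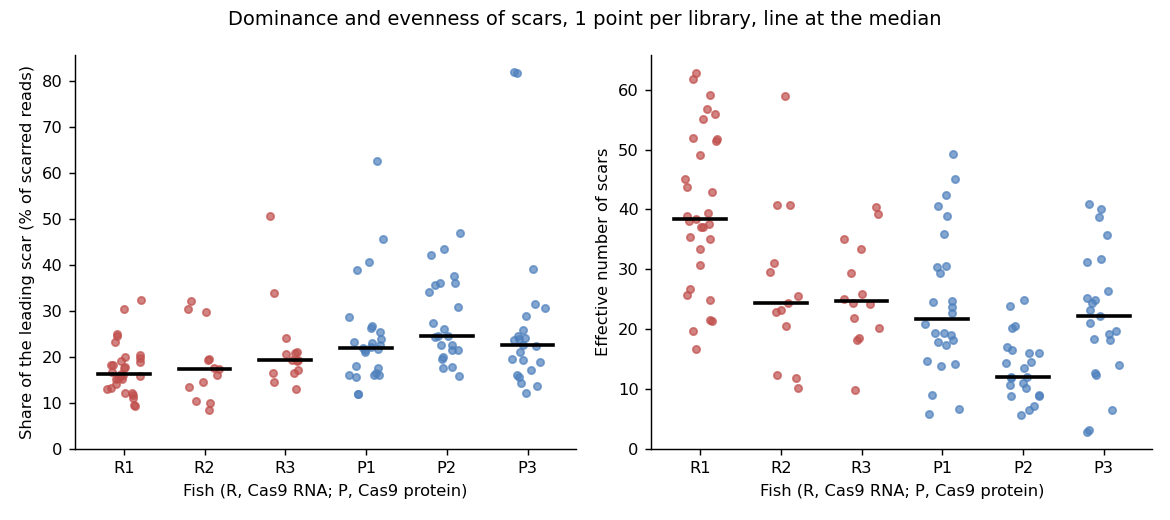
Share of the leading scar (left, y axis, % of scarred reads) and effective number of scars (right, y axis), with 1 point per library and a line at the median of each fish (x axis, Cas9 RNA in red and Cas9 protein in blue). The medians of the 3 Cas9 RNA fish, 16.3%, 17.4% and 19.4%, lie below those of the Cas9 protein fish on the left and, at 38.5, 24.4 and 24.7, above them on the right, while the libraries overlap widely.

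The effective number was set against unscarred GFP and depth within each fish. Across the 31 libraries of fish R1, the effective number correlated with the percentage of unscarred GFP with a Pearson's r of 0.674 and a Spearman's rho of 0.696, and r was 0.765 without the 2 libraries farthest from the median of unscarred GFP. In the same libraries it correlated with log10 scarred reads at r = -0.553 and rho = -0.573. Libraries of fish R1 with a higher effective number thus tended to have both more unscarred GFP and fewer scarred reads. Pielou's evenness was not correlated with either. In fish R2 and R3 the corresponding r were -0.290 and 0.341 for unscarred GFP (13 and 14 libraries), which became -0.0437 and 0.454 without the 2 farthest libraries, and -0.104 and -0.217 for scarred reads. These are descriptions over libraries that share a fish, and the part of depth or of unscarred GFP in the effective number was not tested. With each library drawn down to 1000 scarred reads, the median effective number of the 3 fish stayed within the spread between their libraries.

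The median of the leading share was compared between Cas9 RNA and Cas9 protein fish with an exact permutation test, two-sided, over 3 fish against 3, which cannot go below p = 0.10. Fish R1 to R3 had 16.3%, 17.4% and 19.4%, and fish P1 to P3 had 22%, 24.6% and 22.5%. The 2 groups did not overlap, with means of 17.7% ± 1.56 and 23% ± 1.38 (SD, n = 3 each) and a difference of -5.31 percentage points (exact permutation test, p = 0.10, 0.15 after Benjamini-Hochberg adjustment over 3 comparisons). The median effective number was 38.5, 24.4 and 24.7 against 21.8, 12 and 22.1, again without overlap, with means of 29.2 ± 8.03 and 18.6 ± 5.77 and a difference of 10.6 (exact permutation test, p = 0.10, adjusted 0.15). Without barcode 24 of fish P1, the differences were -5.26 percentage points and 10.3, with the same p. Neither difference can pass 0.05 in this design. When unscarred GFP was counted as one of the forms in a library, the difference in effective number turned to -1.89. With the 15 common scars left out, the groups overlapped in both measures, with differences of -4.89 percentage points (exact permutation test, p = 0.70) and 7.04 (p = 0.60). Those 15 were chosen from these same data, and the remaining shares were rescaled. The part of these scars in the differences between the groups was not tested.

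Within a fish, pairs of libraries ranged from nearly alike to little alike in their scar shares. Pearson correlation over all scars read in a fish ran from 0.182 (barcodes 16 and 25) over a median of 0.724 to 0.990 (barcodes 5 and 31) among the 465 pairs of fish R1, from 0.285 (barcodes 12 and 14) over 0.711 to 0.985 (barcodes 1 and 7) among the 78 pairs of fish R2, and from 0.230 (barcodes 12 and 14) over 0.758 to 0.991 (barcodes 7 and 15) among the 91 pairs of fish R3. The 3 medians lie close together. Pairs of a fish share libraries, so these values are not independent and no test was made on them. The median over pairs was 0.731 ± 0.0239 in the Cas9 RNA fish and 0.738 ± 0.0685 in the Cas9 protein fish (SD, n = 3 each), with a difference of -0.0073 (exact permutation test, p = 0.90, adjusted 0.90), which was -0.0117 without barcode 24 of fish P1. This difference is smaller than either SD, and its sign changed with the processing.

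The pairs of highest correlation formed small sets. In fish R1 all 6 pairs with r of at least 0.95 were among barcodes 5, 15, 27 and 31, which held the 4 highest shares of scar C. In fish R3, 6 of the 7 such pairs were among barcodes 1, 7, 15 and 16, which held the 4 highest shares of scar J, and the other was barcodes 3 and 5. In fish R2 they were 3 pairs among barcodes 1, 7 and 8, the libraries with most of scars F and G, and the pair 3 and 4. A chi-square test of the counts of each pair, over scars with at least 20 reads, gave 72.8 to 697 times its degrees of freedom. This test sets the libraries against counting noise alone, and PCR reads are not independent molecules. It therefore cannot tell a repeat library of 1 piece from a library of another piece. The paper summed technical replicas of a body structure, and whether a pair was such a replica was not tested. At the other end stood single libraries in which a scar with a low share in most of the fish, or scar H, came first. Barcode 14 of fish R3 had a median r of 0.246 to the other libraries and was the one filled by scar K, which also reached 12% in barcode 2. Barcode 16 of fish R1 had 0.320 and was led, like barcode 19, by the 3-bp deletion of bases 545 to 547. Barcode 14 of fish R2 had 0.440 and was led by scar H, which was at 1% or more in 9 of the 13 libraries. Libraries with neighbouring barcode numbers were not closer than others, with a median r of 0.677 against 0.727 in fish R1, 0.694 against 0.711 in fish R2 and 0.738 against 0.758 in fish R3.

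How much of this likeness was carried by common scars differed between the fish. Without scar A, the median r over pairs was 0.555 in fish R1, 0.699 in fish R2 and 0.582 in fish R3. Without all 15 scars common to the 6 fish it was 0.503, 0.743 and 0.341. Leaving them out lowered the median in fish R1 and R3 and not in fish R2, where scars F and G, which are not among the 15, held the highest shares. The 15 scars made up 20.1% to 54.4% of the scarred reads of a library in fish R1 (median 39%), 14.7% to 51.4% in fish R2 (median 36.2%) and 30.2% to 60.2% in fish R3 (median 46.7%).

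**Figure D4:**
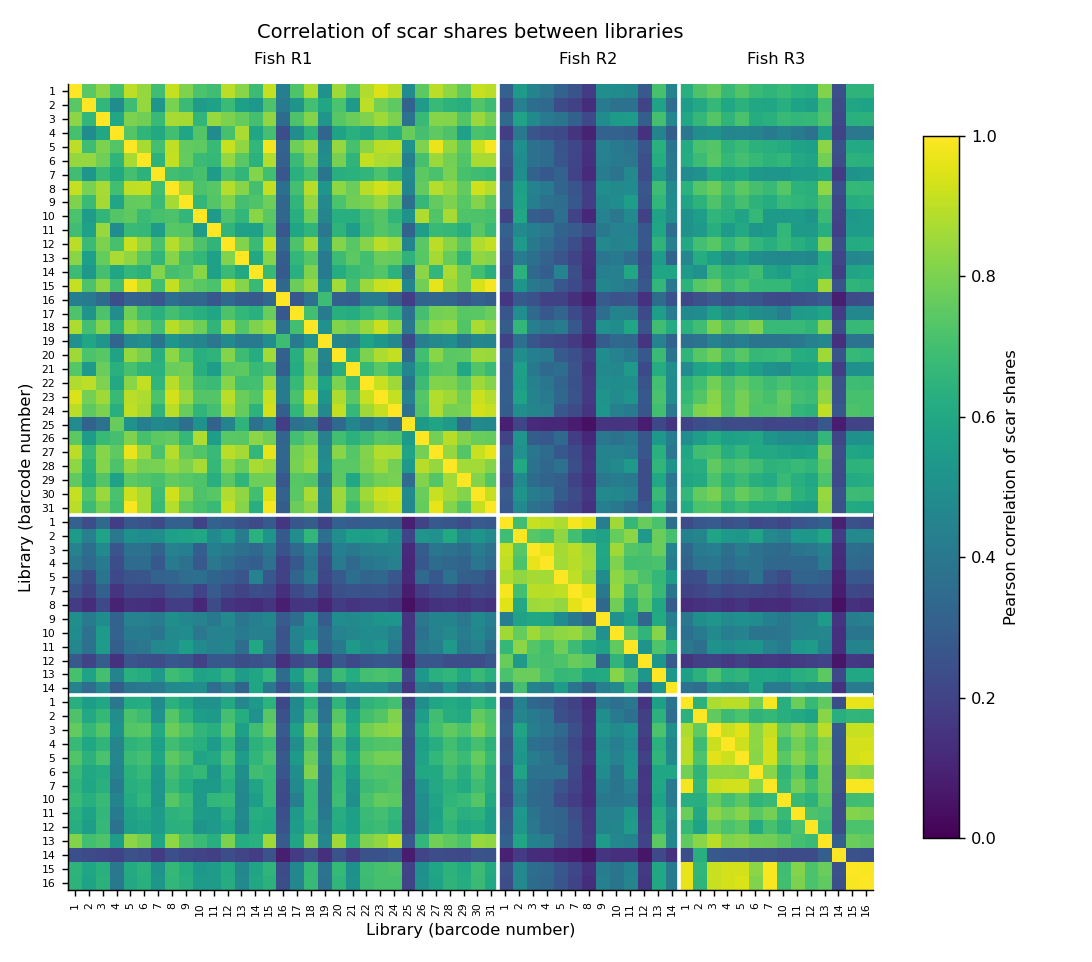
Pearson correlation of scar shares (colour, from 0 to 1) for each pair of the 58 Cas9 RNA libraries, ordered by fish and barcode number on both axes, with white lines between fish. Blocks on the diagonal are pairs within a fish, with medians of 0.724, 0.711 and 0.758. Fish R1 and R3 also share higher values with each other (median 0.617) than either shares with fish R2 (0.358 and 0.363), and dark stripes mark single libraries such as barcode 14 of fish R3.

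Some scars were large in a few libraries and at trace level in the rest. Scars that reached 5% in at least 1 library numbered 32 in fish R1, 21 in fish R2 and 21 in fish R3. Of these, 4, 5 and 5 were at 1% or more in every library of their fish, and 4, 7 and 5 reached 1% in 1 library only. In 9, 9 and 8 of them the highest library had over 100 times the share of the median library. Widely spread and confined scars thus stood side by side in each fish.

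The 3 of these scars per fish with the highest ratio of highest to median share show the pattern. In fish R1, a scar of 4 deletions (1 bp at base 514, 2 bp at 523 to 524, 2 bp at 529 to 530 and 5 bp at 542 to 546) had 8.03% in barcode 11 and 3.92% in barcode 3, against a median of 0.003%. The deletion of base 517 with that of bases 535 to 543 had 8.85% in barcode 16 and at most 0.243% elsewhere, and the deletion of base 534 with 1 bp inserted after base 541 had 6.02% in barcode 21 and at most 0.496% elsewhere. In fish R2, 2 of the 3 were in barcode 12, the deletion of bases 533 to 541 with 11.5% and the deletion of base 536 with that of bases 542 to 544 with 8.96%, and both had at most 0.190% in any other library. The third, a deletion of bases 543 to 552, had 6.01% in barcode 13 and 1.33% in barcode 10. In fish R3, the deletion of bases 527 to 540 had 8.82% in barcode 10 and at most 0.070% elsewhere, the deletions of bases 535 to 540 and 545 to 547 had 5.93% in barcode 4 and 1.37% in barcode 5, and the deletion of base 536 with 1 bp inserted after base 544 had 5.01% in barcode 2 and at most 0.766% elsewhere. The deletion of bases 527 to 540, confined in fish R3, was widespread in fish R1, where it had a mean of 1.29% and reached 1% in 10 of 31 libraries.

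Confined scars had a low share in the median library by the rule that chose them. Among those with over 100 times the median, the share of all reads in the median library was 5.13% of the share in the pooled reads of the fish in fish R1 (range 3.77% to 19.4%), 4.29% in fish R2 (1.35% to 13.9%) and 4.93% in fish R3 (3.27% to 19.2%). The 3 medians lie close together, but the ratios of single scars spread widely within each fish. The rule itself favours low ratios, so they do not show a level common to the scars. Taking away a trace level set by the median ratio of the fish from every library left the median correlation at 0.698, 0.683 and 0.739. The origin of these traces was not tested.

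How far the fish resembled each other depended on the scale. On log10 mean shares the pairs lay close together, with r = 0.561 for fish R1 and R2, 0.589 for R1 and R3 and 0.593 for R2 and R3. On the mean shares themselves, fish R1 and R3 were the nearest pair. Over mean shares, r was 0.789 between fish R1 and R3, 0.464 between fish R1 and R2 and 0.439 between fish R2 and R3. Without scar A these became 0.452, 0.281 and 0.238. Pairs of a Cas9 RNA with a Cas9 protein fish then ran from 0.0766 (R2 and P2) to 0.515 (R3 and P3), the latter above each pair of Cas9 RNA fish. Without the 15 scars common to the 6 fish, the pairs of Cas9 RNA fish had 0.133, 0.087 and 0.028. Since those 15 were chosen for being present in all of the fish, the choice itself lowers these values. Of the 10 scars of highest mean, fish R1 and R2 shared 5, and fish R3 shared 4 with each of them. Pairs of a Cas9 RNA with a Cas9 protein fish ranged from 0.183 to 0.747 and pairs of Cas9 protein fish from 0.200 to 0.414, and fish P1 correlated with fish R1 at 0.747 and with fish R3 at 0.744. Without barcode 24 of fish P1 these last values were 0.745 and 0.743, and the correlation of fish P1 with fish P2, the highest among Cas9 protein fish, fell from 0.414 to 0.356. These pairs share fish, and no test was made on them.

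Scars with a mean share of at least 0.1% in any Cas9 RNA fish numbered 184, of which 33 reached 0.1% in all 3. The 33 include the deletion of base 576 alone, far from the bases deleted most often, with means of 0.177%, 1.26% and 0.130% in fish R1, R2 and R3. The 184 also include single deletions of bases 560, 574 and 580. Each of these deletions had its highest mean in fish R2. They were counted as scars throughout, and whether they came from cuts by Cas9 was not tested. For 15 of the 33, the mean in at least 1 fish fell below 0.1% without the library of highest share, in 1 case in fish R1, 11 in fish R2 and 8 in fish R3. A single library weighs less in the mean of fish R1, with 31 libraries, than in fish R2 and R3, with 13 and 14, so these counts do not compare the fish. The deletion of bases 531 to 544, with 6.15% in barcode 10 of fish R2 and a mean of 0.0494% without it, is an example, and 18 of the 33 reached the limit in every fish without such a library. Of the 33, 32 were single events, a count not set against the share of single events among all 184. All 15 scars common to the 6 fish are among the 33. The 33 made up 38.7% to 77.3% of the scarred reads of a library in fish R1 (median 60.3%), 18.9% to 61.2% in fish R2 (median 46.6%) and 33.1% to 69.9% in fish R3 (median 60.02%). Their weights were not fixed, since the highest fish had a median of 4.24 times the mean share of the lowest, and 3 of the 33 stayed within 2 times. Scar D was one of these, with means of 3.96%, 6.85% and 4.51%, and scar H another, with 3.15%, 3.78% and 4.19%, while scar A had 16.3%, 9.53% and 19.3%.

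**Figure D5:**
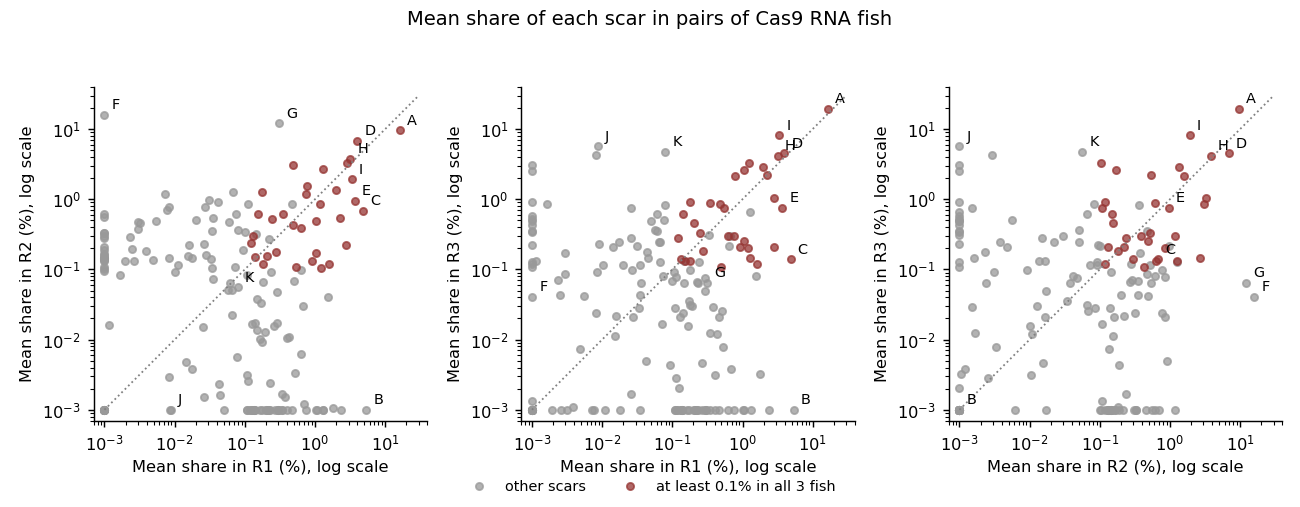
Mean share of each of the 184 scars in pairs of Cas9 RNA fish (both axes, %, log scale), with shares below 0.001% drawn at 0.001% and the dotted line at equal shares. Red points are the 33 scars at 0.1% or more in all 3 fish and grey points the others, and letters mark scars A to K. Scars A, D and H lie near the line in each pair, whereas B, F, G, J and K lie far from it wherever their own fish is plotted.

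Shared and single-fish scars were compared in how far they spread within a fish, among scars with a mean of at least 0.5%. Shared scars were those of the 33, and single-fish scars had a mean below 0.01% in both other Cas9 RNA fish. In fish R1, the coefficient of variation over libraries had a median of 0.899 for 21 shared scars and 0.827 for 10 single-fish scars. In fish R3 it was 0.726 for 16 and 0.750 for 7. The medians of the 2 classes lay close together in both fish at this limit, but not when all scars with a mean of at least 0.1% were taken, where the single-fish scars had 1.69 times the median of the shared ones in fish R1 and 1.99 times in fish R3. In fish R2 it was 1.10 for 18 shared scars and 2.66 for 4 single-fish scars, of which 3 were confined to 1 or 2 libraries at 1% or more. In fish R1, R2 and R3, 10 of 10, 1 of 4 and 6 of 7 single-fish scars were read, at any level, in every library of their fish. For shared scars it was 21 of 21, 16 of 18 and 16 of 16. Scar B in fish R1, at 1.65% to 19.8%, and the deletion of bases 531 to 533 in fish R3, at 0.542% to 8.77%, are examples of such single-fish scars. Among the single-fish scars, 5 of 10, 3 of 4 and 5 of 7 had 2 or more events, against 1 of 21, 0 of 18 and 1 of 16 of the shared ones. Among the scars in neither class it was 0 of 5, 1 of 12 and 0 of 7.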

How the data were processed

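ScarTrace libraries of 6 zebrafish were analysed. Per the labels and methods, GFP was amplified from genomic DNA with barcoded primers, and reads were mapped with the Burrows–Wheeler Aligner (BWA 0.7.16a in the submitters' processing notes). The authors deposited, for each fish, raw counts of reads per scar and barcode, with scars written as insertions and deletions along GFP, without normalization or noise filter. Substitutions are not recorded.

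A barcode counted as a library from 1000 reads upward. Counts were divided by the scarred reads of the library. Leading share, effective number and Pearson correlation between libraries were computed per library or pair, and fish were compared by the difference of their means (exact permutation, two-sided, Benjamini-Hochberg adjustment). Named scars are the 5 of highest mean share, those leading at least 2 libraries and the 3 with the highest ratio of highest to median share among those reaching 5%. Members, lists and limits were chosen with earlier results of these data known. Alternatives were other read limits, noise filters of 10 reads or 1%, drawing to 1000 reads, shares of all reads, common scars left out and other indices. The measures were tested on simulated data with known shares. The software was SciPy 1.17.1, pandas 2.3.3, NumPy 2.4.6 and Matplotlib 3.10.9 under Python 3.11.15, with random seed 1.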

Additional observations from a re-analysis of the deposited data

Results flagged for a closer look

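Barcode columns with fewer than 1000 reads entered no comparison, and 4 of them in Cas9 RNA fish held at least 100 reads and carried scarred reads above the limit that a count of 0 allows, a low bar that a few stray reads would pass. In fish R2, barcode 6 had 397 reads, of which 14.6% were scarred (95% Wilson interval 11.5% to 18.4%). In fish R3, scarred reads made up 49.6% of the 268 reads of barcode 8 (43.7% to 55.6%), 55.3% of the 685 reads of barcode 9 (51.6% to 59%) and 56.3% of the 446 reads of barcode 17 (51.6% to 60.8%). A count of 0 would allow 0.756%, 1.12%, 0.438% and 0.673%. The 10 scars of highest mean share in the fish held 65.5%, 55.6%, 59.1% and 59.8% of these scarred reads, and the shares correlated with the mean of the fish at r = 0.734, 0.959, 0.811 and 0.961. Whether these reads belong to their barcodes was not tested.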

How the results depend on the processing

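Of the alternatives to the values above, 133 left them within the limits set, 28 moved a value by more than the spread between replicates or libraries and 8 turned a sign. Counting unscarred GFP in the shares moved the median leading share to 9.91% in fish R1 and 2.05% in fish R2, the effective number to 21.6, 2.14 and 11.2 in the 3 fish and the correlation between libraries to 0.999 in fish R2, and turned the differences between Cas9 RNA and protein fish to -1.89 in effective number and 0.135 in correlation. Keeping scars of at least 1% moved the leading share of fish R1 to 21.9% and the effective number of fish R1 and R3 to 14.9 and 12.5, and the inverse Simpson number was 17.2 and 12.1 there. Leaving out the common scars moved the leading share of fish R2 to 27.5%, the correlation between libraries to 0.503 in fish R1 and 0.341 in fish R3, and that between fish to 0.0873, 0.133 and 0.0283 (R1 with R2, R1 with R3, R2 with R3). With these scars left out, Cas9 RNA and protein fish overlapped in leading share (-4.89, exact permutation p = 0.70) and effective number (7.04, p = 0.60). The scars left out were chosen from these same data. Without scar A the last 2 correlations between fish were 0.452 and 0.238. On log10 mean shares fish R1 and R3 correlated at 0.589, fish R1 and R2 at 0.561 and fish R2 and R3 at 0.593, so fish R1 and R3 were no longer the nearest pair. Spearman correlation between libraries was 0.210, 0.120 and 0.210, taken only over scars with at least 0.1% in either library of a pair. That is a smaller set of scars than for Pearson correlation, so the values are not directly comparable. The value of 1 minus the Bray-Curtis distance was 0.505, 0.479 and 0.483. The difference in correlation between the groups, -0.0073, turned to 0.0327 with libraries of at least 100 reads and 0.000227 with the trace level subtracted. It turned to 0.0110 with Bray-Curtis and 0.0208 with means over pairs. Leaving out 1 fish at a time gave -0.0331 to 0.0315, turning the sign without fish R2 and without fish P1, and gave -6.16 to -4.53 for the leading share and 5.95 to 13 for the effective number. The ratio of spread of single-fish to shared scars moved to 64.8 in fish R2 with the highest over the median share and to 1.99 in fish R3 with scars of at least 0.1%, where it also went from 0.920 to 1.69 in fish R1. Fish share only a replicate number across groups, an index not known to pair them. With it as a replicate block the differences, -5.31, 10.6 and -0.0073, are the same by construction. The exact sign-flip permutation test gave p = 0.25, 0.25 and 1.0, where 0.25 is the smallest possible, and no conclusion was drawn from it. The cause of these shifts was not tested. Subtracting the trace level, leaving out scar A, leaving out the common scars between fish and leaving out barcode 24 of fish P1 were chosen after seeing the data.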
